A study of Mus musculus with 17 samples.

Results

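The small heat shock proteins of mouse skeletal muscle and the chaperones that work with them were followed across the 5 groups of a study of p53 and limb immobilization. The genes were chosen by name, with earlier results of these data known: Hspb1, Hspb2, Hspb3, Hspb6, Hspb7, Hspb8, Cryab, Bag3, Hspa1b and Hsph1. Of these 10 genes, 9 had a probe whose annotated symbol was theirs, with 1 probe each, out of 16593 named genes on the arrays. Hspa1b had no listed probe and was not analysed here. All 9 probes passed the filter on low values in every comparison.

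RNA came from the tibialis anterior, a fast muscle of the lower hindlimb, of male mice aged 8 weeks, collected at day 3 and hybridised to 17 single-colour bead arrays. The groups were immobilized hindlimbs of p53 mKO mice (3 arrays), immobilized hindlimbs of littermate control mice (3), mobile hindlimbs of littermate control mice (3), muscle transfected with a p53 plasmid (4) and muscle transfected with a control plasmid (4), the transfected mice being C57BL/6. The labels do not spell out mKO, and name neither a Cre line, a promoter of the plasmid nor the share of fibres transfected. There was no mobile p53 mKO group. Which limbs belong to the same mouse is not labelled, so p-values measure the spread between these samples, which may be technical. Trp53 had no listed probe and was not analysed here, so neither the knockout nor the plasmid was checked by its own transcript.

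Small heat shock proteins hold unfolding proteins in solution without using ATP, in oligomers that share a conserved alpha-crystallin domain. HSP70 chaperones, helped by J-domain proteins and by nucleotide exchange factors, then refold the client or pass it on for destruction. In muscle, Bag3 joins HSP70 to Hspb8 and steers damaged proteins of the Z-disc, such as filamin, into autophagy. Many of these genes are induced through heat shock factor 1, whose binding sites are built from inverted repeats of the triplet GAA.

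The values were on a log2 scale from 8.21 to 15.61, with array medians between 8.48 and 8.5, so a difference of 1 is a doubling of signal. All 10 skeletal muscle fibre markers, Acta1 and Ckm among them, had a mean signal at or above the 99.2 percentile of all probes. An array was set apart for a probe when it was at least 1.5-fold above every other array of its group. Array 1 of the mobile controls was so for 33 of 17107 probes (0.193%), and 4 of these were Hspb7, Cryab, Hspb1 and Hspb8. Array 4 of the control plasmid group was so for 28 probes (0.164%), among them Hspb8 and Hsph1. Immobilized control array 1 was so for 356 probes and array 3 of that group was at least 1.5-fold below both others for 330, as was p53 mKO array 3 for 302, with no member among these probes. Immobilized control array 1 was that far below both others for 21 probes, among them Hspb7. Member calls that changed when 1 of these arrays was left out are given with and without it.

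**Figure D1:**
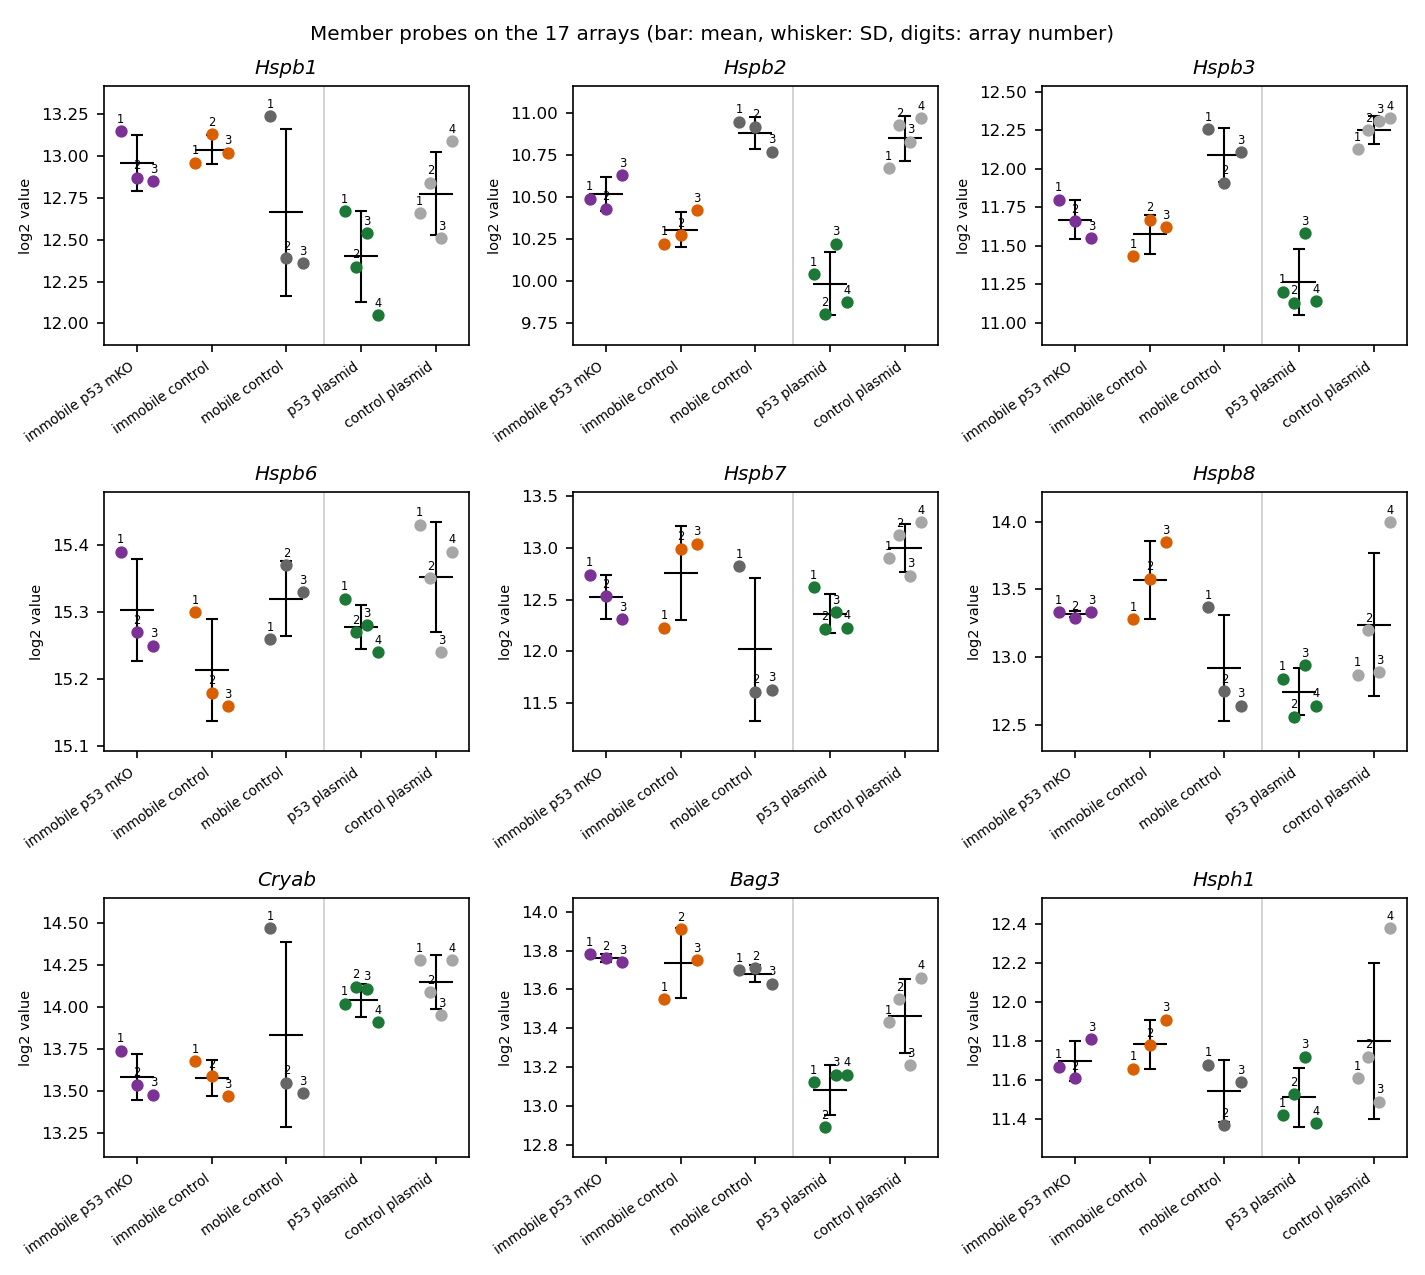
Signal of the 9 probes on each array (vertical axis, log2 value; a panel for each gene, with its own axis range; digits mark the array, bars the group mean and whiskers the SD). Hspb2 and Hspb3 are lowest in the p53 plasmid group, and mobile control array 1 sits above the other mobile arrays for Hspb1, Hspb7, Hspb8 and Cryab.

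The promoters of 8 of the 10 genes were read from RefSeq (GRCm38.p6), as the 250 bases before each annotated start. Heat shock elements hold GAA in inverted pairs, so GAANNTTC and TTCNNGAA were searched; each reads the same on both strands. At least 1 pair was found in 12.8% of 32851 promoters, and in a window of 5 of the 8 members (Hspb1, Hspb3, Hspb6, Hspa1b and Hsph1). The 12.8% counts windows and the 5 counts genes, so they are not directly comparable: the 8 members had 10 windows. Hspb6 held a pair in window 2 and not in window 1, and the 2 windows of Hsph1 overlap on the same pair. A triple, a pair with 1 more inverted unit at the same spacing, was found in 0 members and in 0.466% of all promoters. A match is a description of letters and not a site. The windows of Hspb1, with 2 pairs, and of Hspb3, Hspb7 and Bag3 are printed, because the last 3 are the members with a RefSeq entry whose signal fell with the p53 plasmid. Of those 3, Hspb3 holds a pair. Capitals mark the pairs.
Hspb1 promoter, chr5:135887669-135887918 (plus strand): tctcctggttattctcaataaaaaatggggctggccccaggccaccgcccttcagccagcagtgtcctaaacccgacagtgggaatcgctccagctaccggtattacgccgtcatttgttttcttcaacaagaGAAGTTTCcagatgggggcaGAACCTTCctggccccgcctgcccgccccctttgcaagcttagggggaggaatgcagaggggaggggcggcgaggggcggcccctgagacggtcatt
Hspb3 promoter, chr13:113663677-113663926 (minus strand): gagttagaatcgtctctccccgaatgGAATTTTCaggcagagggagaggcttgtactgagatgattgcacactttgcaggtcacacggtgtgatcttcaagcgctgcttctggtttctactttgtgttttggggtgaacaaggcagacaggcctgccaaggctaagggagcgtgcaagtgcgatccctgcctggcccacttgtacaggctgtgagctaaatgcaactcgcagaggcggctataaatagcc
Hspb7 promoter, chr4:141420529-141420778 (plus strand): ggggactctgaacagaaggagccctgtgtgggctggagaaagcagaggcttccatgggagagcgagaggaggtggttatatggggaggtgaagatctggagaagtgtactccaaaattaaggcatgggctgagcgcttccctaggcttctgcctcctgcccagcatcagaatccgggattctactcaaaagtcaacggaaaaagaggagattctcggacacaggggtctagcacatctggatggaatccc
Bag3 promoter, chr7:128523333-128523582 (plus strand): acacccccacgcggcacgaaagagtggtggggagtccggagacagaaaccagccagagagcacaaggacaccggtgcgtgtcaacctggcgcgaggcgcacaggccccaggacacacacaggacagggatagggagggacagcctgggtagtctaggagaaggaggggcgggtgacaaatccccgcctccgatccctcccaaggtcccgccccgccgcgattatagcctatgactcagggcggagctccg
In Hspb1 the pairs lie at -117 to -110 and at -97 to -90 from the start, and in Hspb3 at -224 to -217. A p53 half-site was found in 7.13% of all promoters and in the 2 overlapping windows of 1 member, Hsph1.

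Hspb3 and Hspb2, which assemble with each other into a complex made in differentiated muscle, had the clearest differences. Hspb3 read 11.20, 11.13, 11.58 and 11.14 in p53 plasmid muscle, against 12.13, 12.25, 12.31 and 12.33 in control plasmid muscle. Every p53 plasmid array lay below every control plasmid array. Hspb3 fell by 0.99 ± 0.10 on the log2 scale (difference ± SE, limma, adjusted p = 8.39e-05), a signal 1.99-fold lower with the p53 plasmid. In the other experiment Hspb3 read 11.80, 11.66 and 11.55 in immobilized p53 mKO muscle, 11.43, 11.67 and 11.62 in immobilized control muscle, and 12.26, 11.91 and 12.11 in mobile control muscle. Both immobilized groups lay wholly below the mobile one. The immobilized control muscle fell by 0.52 ± 0.11 against mobile muscle (limma, adjusted p = 0.0207). It missed the threshold without mobile control array 1 (-0.44, adjusted p = 0.0625), without mobile control array 3 (-0.51, 0.076) and without immobilized control array 1 (-0.45, 0.0522).

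Hspb2 read 10.04, 9.80, 10.22 and 9.87 in p53 plasmid muscle, against 10.67, 10.93, 10.83 and 10.97 in control plasmid muscle. The groups did not overlap, and Hspb2 fell by 0.87 ± 0.10 (limma, adjusted p = 0.000158), or 1.82-fold. In the immobilization experiment it read 10.49, 10.43 and 10.63 in immobilized p53 mKO muscle, 10.22, 10.27 and 10.42 in immobilized control muscle, and 10.95, 10.92 and 10.77 in mobile control muscle. The 3 groups did not overlap, with p53 mKO muscle between the others. Hspb2 fell by 0.58 ± 0.08 in immobilized control muscle against mobile muscle (limma, adjusted p = 0.0038), or 1.49-fold. The p53 mKO muscle was 0.21 ± 0.08 above immobilized control muscle (95% interval 0.04 to 0.39), which was not called (limma, adjusted p = 1). Against mobile muscle the p53 mKO muscle fell by 0.36 ± 0.08 (limma, adjusted p = 0.0268). That last difference missed the threshold without p53 mKO array 1 (adjusted p = 0.0867) or 2 (0.0926), and without mobile control array 1 (0.0908) or 2 (0.11).

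Bag3, the co-chaperone that links HSP70 with Hspb8, read 13.12, 12.89, 13.16 and 13.16 in p53 plasmid muscle, against 13.43, 13.55, 13.21 and 13.66 in control plasmid muscle. The highest p53 plasmid arrays lay just under the lowest control plasmid array. Bag3 fell by 0.38 ± 0.10 (limma, adjusted p = 0.012), a signal 1.3-fold lower. In the immobilization experiment it read 13.78, 13.76 and 13.74 in p53 mKO muscle, 13.55, 13.91 and 13.75 in immobilized control muscle, and 13.70, 13.71 and 13.63 in mobile muscle. The p53 mKO arrays lay just above the mobile ones, by 0.08 ± 0.08 (limma, adjusted p = 0.616). The immobilized control difference was 0.06 ± 0.08 against mobile muscle, with a 95% interval of -0.13 to 0.24 (limma, adjusted p = 0.737).

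Hspb8, the small heat shock protein that binds Bag3, read 13.33, 13.29 and 13.33 in immobilized p53 mKO muscle, 13.28, 13.58 and 13.85 in immobilized control muscle, and 13.37, 12.75 and 12.64 in mobile muscle. Mobile control array 1 lay within the immobilized range, while the other mobile arrays lay below every immobilized array. The immobilized control difference of 0.65 ± 0.20 was not called with all arrays (limma, adjusted p = 0.0896). Without mobile control array 1 it was 0.87 ± 0.15 and called (limma, adjusted p = 0.0196). With the plasmids Hspb8 read 12.84, 12.56, 12.94 and 12.64 for p53, against 12.87, 13.20, 12.89 and 14.00 for the control. The difference of -0.49 ± 0.24 was not called (limma, adjusted p = 0.113), and without control plasmid array 4 it was -0.24 (adjusted p = 0.122).

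Hspb7, a small heat shock protein of heart and skeletal muscle that binds filamin, had a wide spread between groups. It read 12.62, 12.22, 12.38 and 12.23 in p53 plasmid muscle, against 12.90, 13.12, 12.73 and 13.25 in control plasmid muscle. The groups did not overlap, and Hspb7 fell by 0.64 ± 0.13 (limma, adjusted p = 0.00297), or 1.56-fold. In immobilized p53 mKO muscle it read 12.74, 12.53 and 12.31, in immobilized control muscle 12.23, 12.99 and 13.04, and in mobile muscle 12.82, 11.61 and 11.63. The first mobile array was 2.28-fold above the next, so the mobile group overlapped both immobilized ones. The immobilized control difference of 0.73 ± 0.35 was not called (limma, adjusted p = 0.251), and without mobile control array 1 it was 1.13 ± 0.25 (adjusted p = 0.0477). Without immobilized control array 1 it was 0.99 ± 0.36 (limma, adjusted p = 0.148).

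Hspb1, which stabilises actin filaments in stressed cells, read 13.15, 12.87 and 12.85 in immobilized p53 mKO muscle, 12.96, 13.13 and 13.02 in immobilized control muscle, and 13.24, 12.39 and 12.36 in mobile muscle. Mobile control array 1 was the highest of these 9 arrays, and the other mobile arrays the lowest. The immobilized control difference of 0.37 ± 0.22 was not called (limma, adjusted p = 0.356), and without mobile control array 1 it was 0.66 ± 0.10 (adjusted p = 0.0126). With the plasmids Hspb1 read 12.67, 12.34, 12.54 and 12.05 for p53, against 12.66, 12.84, 12.51 and 13.09 for the control. These ranges overlapped, and the difference of -0.38 ± 0.16 was not called (limma, adjusted p = 0.0751). It was called without p53 plasmid array 1 (-0.46, adjusted p = 0.0435) and without control plasmid array 3 (-0.46, adjusted p = 0.0464).

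Cryab, alpha-B crystallin, which guards desmin and the Z-disc, read 14.02, 14.12, 14.11 and 13.91 in p53 plasmid muscle, against 14.28, 14.09, 13.95 and 14.28 in control plasmid muscle. The difference of -0.11 ± 0.08 was not called (limma, adjusted p = 0.291). In immobilized p53 mKO muscle it read 13.74, 13.54 and 13.48, in immobilized control muscle 13.68, 13.59 and 13.47, and in mobile muscle 14.47, 13.55 and 13.49. All mobile arrays but the first lay within the immobilized range. The immobilized control difference was -0.26 ± 0.24 with all arrays (limma, adjusted p = 0.578) and 0.06 without mobile control array 1 (adjusted p = 0.783), so its sign rested on that array. Hspb2 and Cryab are neighbouring protein-coding genes, and their differences were unlike: with the p53 plasmid Hspb2 fell by 0.87, while Cryab differed by -0.11 ± 0.08 with a 95% interval of -0.3 to 0.08.

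Hspb6, a small heat shock protein also known to act on smooth muscle relaxation, read between 15.16 and 15.43 on all 17 arrays, near the highest value of the table, where signal can be compressed. Its group means spanned only 0.14, and no difference was called. The one nearest to a call was -0.08 ± 0.04 for p53 plasmid against control plasmid muscle (limma, adjusted p = 0.162), which was called at -0.11 without control plasmid array 3 (adjusted p = 0.0178).

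Hsph1, the HSP110 protein that recharges HSP70 by nucleotide exchange, read 11.42, 11.53, 11.72 and 11.38 in p53 plasmid muscle, against 11.61, 11.72, 11.49 and 12.38 in control plasmid muscle. Control plasmid array 4 stood 1.58-fold above the next array. The difference of -0.29 ± 0.18 was not called (limma, adjusted p = 0.218), and without that array it was -0.09 (adjusted p = 0.422). Immobilization gave 11.67, 11.61 and 11.81 in p53 mKO muscle, 11.66, 11.78 and 11.91 in immobilized control muscle, and 11.68, 11.37 and 11.59 in mobile muscle, with no call. For Hspa1b, the heat-inducible HSP70, only the probe of its near-identical neighbour Hspa1a could be read. That probe lay between 8.53 and 9.07 on the 17 arrays, near the bottom of the scale, and a probe for one copy may also capture the other. It averaged 8.64 ± 0.08 in control plasmid muscle and 8.92 ± 0.14 in mobile control muscle (SD), and fell by 0.28 ± 0.07 (limma, adjusted p = 0.00706). It differed by -0.31 ± 0.09 in immobilized control against mobile muscle (limma, adjusted p = 0.0721) and by -0.02 ± 0.04 with the p53 plasmid (adjusted p = 0.744), neither called.

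**Figure D2:**
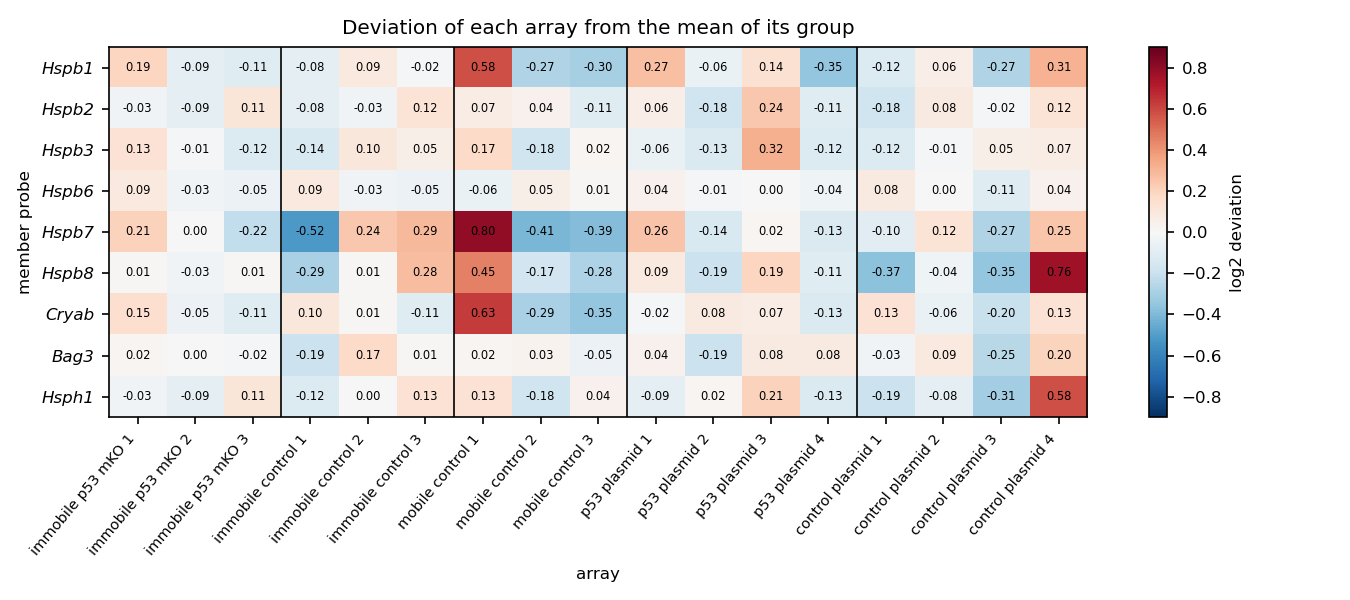
Deviation of each array from the mean of its own group (colour, log2; rows are the 9 probes, columns the 17 arrays). Mobile control array 1 is high for Hspb7, Cryab, Hspb1 and Hspb8, and control plasmid array 4 for Hspb8 and Hsph1.

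The question of the first comparison was what 3 days of immobilization do in control muscle. Hspb2 and Hspb3 fell, and no member rose. That made 2 of 9 member probes fallen (22.2%), against 6.06% of all 16036 probes tested, and 0 risen against 4.08%, with 10.1% of all probes called in either direction. The members' median difference was 0.06, against 0 over all probes. Hspb7, Hspb8 and Hspb1 had differences above 0 that were called without mobile control array 1, on which these probes stood apart. Hspb3 was no longer called in that fit. Without mobile control array 2 the differences of Hspb7, Hspb8 and Hspb1 were 0.53, 0.56 and 0.24. Without array 3 they were 0.54, 0.51 and 0.22, and none of these was called.

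**Figure D3:**
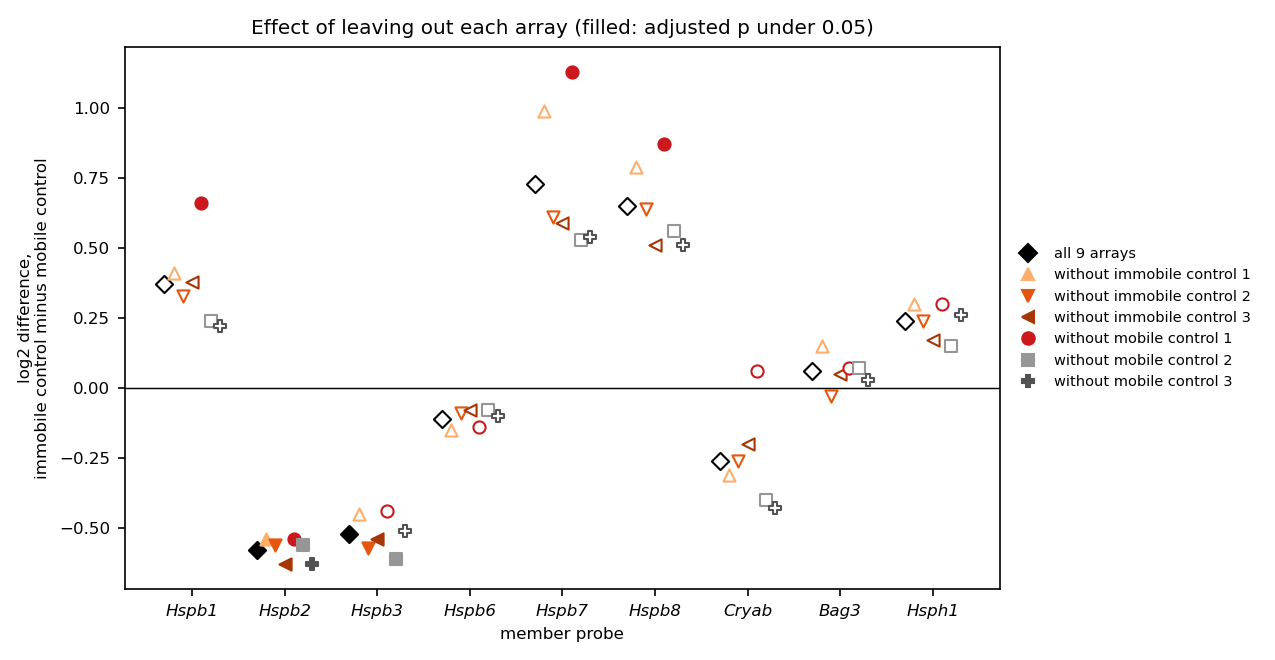
Difference of immobilized control minus mobile control muscle (vertical axis, log2) for each probe, with all arrays and with each array left out in turn; filled symbols have an adjusted p under 0.05. Leaving out mobile control array 1 brings Hspb1, Hspb7 and Hspb8 past the threshold, and Hspb2 is past it in every case.

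The next comparison asked whether p53 mKO changed the immobilized muscle. No member was called, and of all 16036 probes 0 were called (0%) by limma, with 473 at an unadjusted p under 0.05. The 95% intervals for p53 mKO minus immobilized control were -0.16 to 0.21 for Bag3, -0.15 to 0.34 for Hspb3, -0.59 to 0.43 for Hspb1, -0.72 to 0.21 for Hspb8, -0.54 to 0.56 for Cryab and -1.04 to 0.59 for Hspb7. In a fit of only these 2 groups with the replicate number as a block, added after seeing the data, 0 of 15419 probes were called and 1040 had an unadjusted p under 0.05 (limma). Same-numbered arrays differed in the same direction in all 3 pairs for 2 of 9 members, Hspb2 (0.27, 0.16 and 0.21) and Hspb6 (0.09 in each pair). In that fit neither was called, with Hspb2 at 0.21 ± 0.04 (limma, unadjusted p = 0.00457, adjusted p = 0.684) and Hspb6 at 0.09 ± 0.03 (unadjusted p = 0.0501, adjusted p = 0.737). The share of all probes with the same direction in all 3 pairs was not computed. The count of 2 is therefore not read as a result about the members. Against the mobile arrays, which this comparison shares with the first, Hspb2 and Hspb3 fell in p53 mKO muscle, by 0.36 ± 0.08 and 0.42 ± 0.11 (limma, adjusted p = 0.0268 and 0.0497). That is 2 of 9 (22.2%), against 5% of all probes fallen, and 0 risen against 3.5%, with 8.5% called in either direction. The Hspb3 call was lost without any single array except mobile control array 2, with adjusted p between 0.0644 and 0.152. Without mobile control array 1, Hspb1 rose by 0.58 in p53 mKO muscle (limma, adjusted p = 0.023). Hspb7 (0.91, adjusted p = 0.101) and Hspb8 (0.62, adjusted p = 0.0658) were not called in that fit.

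With the p53 plasmid, Hspb3, Hspb2, Hspb7 and Bag3 fell against the control plasmid, and no member rose. That is 4 of 9 (44.4%), against 28.4% of all 15426 probes fallen, and 0 risen against 29.7%. All 9 differences were below 0, with a median of -0.38, against 0 over all probes. In either direction 58.1% of all probes were called. The 4 calls held when each array was left out, although Hspb7 missed the threshold when all 17 arrays were fitted together (limma, adjusted p = 0.0508).

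**Figure D4:**
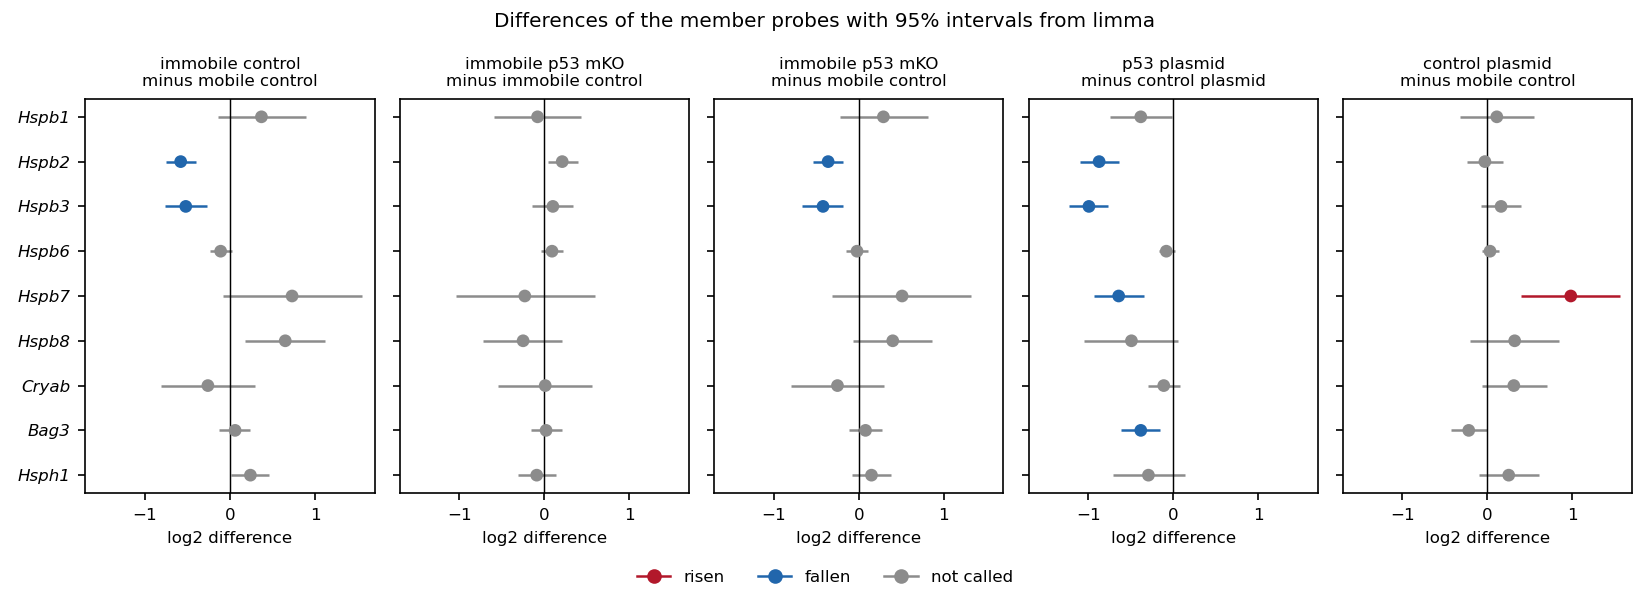
Differences of the 9 probes in the 5 comparisons (horizontal axis, log2, with 95% intervals from limma). Hspb2 and Hspb3 lie left of 0 both in immobilized control against mobile control muscle and in p53 plasmid against control plasmid muscle.

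The control plasmid and mobile control groups belong to different experiments, so transfection and experiment cannot be told apart. Hspb7 rose by 0.98 ± 0.27 in control plasmid muscle against mobile muscle (limma, adjusted p = 0.0118), 1.97-fold, though mobile control array 1 lay within the control plasmid range. That is 1 of 9 risen, against 14.3% of all 17107 probes, and 0 fallen against 20.1%, with 34.5% called in either direction. Hspb7 missed the threshold without mobile control array 2 (0.77, adjusted p = 0.0719) or array 3 (0.78, adjusted p = 0.0671). Without mobile control array 1 it was 1.38 (limma, adjusted p = 0.000422). Cryab differed by 0.31 ± 0.18 (limma, adjusted p = 0.198), and by 0.63 without mobile control array 1 (adjusted p = 0.000523). Bag3 differed by -0.22 ± 0.10 (limma, adjusted p = 0.108), and by -0.28 without control plasmid array 4 (adjusted p = 0.043). The macrophage marker sum was 22600 to 28100 in control plasmid muscle, against 7420 to 8740 in mobile muscle. Other marker lists moved too: erythroid (3 of 3 tested), endothelial (3 of 4) and smooth muscle and pericyte markers (4 of 6, with 1 risen) fell. Of 7 slow-fibre markers, 3 rose. The part of these marker shifts in the member differences was not tested.

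Markers of other cells moved with the plasmid comparison. The summed linear signal of 8 macrophage markers was 56700 to 68900 in p53 plasmid muscle, against 22600 to 28100 in control plasmid muscle, and 7 of the 8 rose. Cd68 and Csf1r, also on that list, had no listed probe. The summed signal of 10 fibre markers was 329000 to 350000 in p53 plasmid muscle, against 364000 to 377000 in control plasmid muscle. Of these markers Ckm, Myh4, Myh1 and Actn3 fell and 6 were not called, with a median difference of -0.04. The summed signal of 7 slow-fibre markers was 9690 to 14700 in p53 plasmid muscle, against 13600 to 23200 in control plasmid muscle, and 3 of 7 fell. Neutrophil markers (3 of 4 tested) and fibroblast markers (3 of 7) also rose, and endothelial markers (3 of 4) fell. Of 6 smooth muscle and pericyte markers tested, 3 fell and 1 rose. Over all probes of this comparison 29.7% rose and 28.4% fell, so counts from such small lists can lie near those shares. In bulk tissue, fewer fibres and less RNA per fibre cannot be told apart, and the part of either shift in the fall of Hspb2, Hspb3, Hspb7 and Bag3 was not tested. In the immobilization arrays the macrophage sum was 9780 to 19000 in p53 mKO muscle and 9610 to 40300 in immobilized control muscle, against 7420 to 8740 in mobile muscle. The slow-fibre sum was 11800 to 18800 in p53 mKO muscle and 12400 to 13800 in immobilized control muscle. In mobile muscle it was 17400 to 24200. In immobilized control muscle 1 of the 7 slow-fibre markers fell against mobile muscle, with a median difference of 0.08. In p53 mKO muscle 0 of the 7 were called, with a median difference of 0.03. The part of the slow-fibre sum in the fall of Hspb2 and Hspb3 was not tested. Immobilized control array 1, which had the sum of 40300, was also the lowest of its group for Hspb1, Hspb2, Hspb3, Hspb7, Hspb8, Bag3 and Hsph1, and the highest for Cryab and Hspb6. The part of that sum in these values was not tested.

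The rest of the chaperone network was read from 8 lists of 86 genes, of which 74 were tested within each experiment. With the p53 plasmid, 34 of these fell (45.9%, against 28.4% of all probes) and 14 rose (18.9%, against 29.7%). Of 11 genes of chaperone-assisted autophagy and the Z-disc, 10 fell and none rose, among them myotilin Myot by 1.21, Ldb3 by 1.19, the Bag3 partner Synpo2 by 0.74 and alpha-actinin Actn2 by 0.62 (log2, limma, adjusted p = 0.000209 to 0.000885). Of 13 J-domain proteins, 9 fell, led by Dnajb2 (-1.01), Dnaja4 (-0.90), Dnajb6 (-0.90) and Dnaja2 (-0.76), while Dnajb1, a partner of heat-induced HSP70, rose by 0.60. Of 10 chaperonin genes, 5 rose and none fell, among them Cct3 by 0.60, Cct6a by 0.46, Hspd1 by 0.45 and Cct8 by 0.39. The second probes of Dnajb6, Dnaja2 and Ldb3 gave smaller differences, of -0.19, -0.27 and -0.46. Among the 10 fallen autophagy and Z-disc genes, the calls of Des and Xirp1 were lost when some single arrays were left out. Their highest adjusted p in those fits was 0.0812 and 0.0757 (limma).

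Over all probes 28.4% fell and 29.7% rose, the shares against which the counts of these smaller lists stand. Among 16 HSP90 proteins and cochaperones, 5 fell and 3 rose. The myosin chaperone Unc45b fell by 1.04 and its partner Smyd1 by 0.61, Aarsd1 fell by 0.38, and the endoplasmic reticulum HSP90 Hsp90b1 rose by 0.65. Among 11 HSP70 genes, 4 rose and 3 fell, with Hspa1l at -0.80, Hspa2 at -0.42 (its other probe at -0.12), Hspa12b at -0.39 and Hspa4 at 0.38. Of 10 HSP70 regulators, 4 fell (Bag6 by 0.34, Grpel1 by 0.20 and Bag2 by 0.19 among them) and 1 rose (Bag4 by 0.21). The Grpel1 call was lost without p53 plasmid array 4 or control plasmid array 2 (highest adjusted p = 0.0637, limma). All 3 tested genes of the heat shock factor list fell: Hsbp1 by 0.32, Hsf2 by 0.21 and Hsf4 by 0.15. Of the 48 calls, 44 held when each array was left out. No gene of the list of other small heat shock proteins passed the filter in this fit.

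With immobilization, 7 of the 74 list genes rose in control muscle (9.46%, against 4.08% of all probes) and 3 fell (4.05%, against 6.06%). The J-domain protein Dnaja4 fell by 0.88, and the chaperonin subunit Cct3 rose by 0.50, although its other probe gave 0.08 (limma, adjusted p = 0.902). These 2 calls held without each array. Sqstm1, the autophagy receptor p62, rose by 0.70, Pdlim3 by 0.60, Hsp90b1 by 0.57, Cct4 by 0.38, Dnajb9 by 0.32 and Cct6a by 0.29, while Fkbp4 fell by 0.42 and Hspbp1 by 0.32. Each of these 8 calls was lost without mobile control array 2 and without mobile control array 3, with highest adjusted p between 0.0693 and 0.168. In p53 mKO against mobile muscle 7 list genes rose (9.46%, against 3.5% of all probes) and 4 fell (5.41%, against 5%), with Map1lc3b, a marker of autophagosomes, up by 0.71. Of these 11 calls, 3 held when each array was left out (Cct3, Dnaja4 and Map1lc3b). In control plasmid against mobile muscle 10 of 75 rose (13.3%, against 14.3% of all probes) and 17 fell (22.7%, against 20.1%), with Hsp90b1 up by 0.69 while Fkbp4 fell by 0.46. Of these 27 calls, 16 held when each array was left out, those of Hsp90b1 and Fkbp4 among them.

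**Figure D5:**
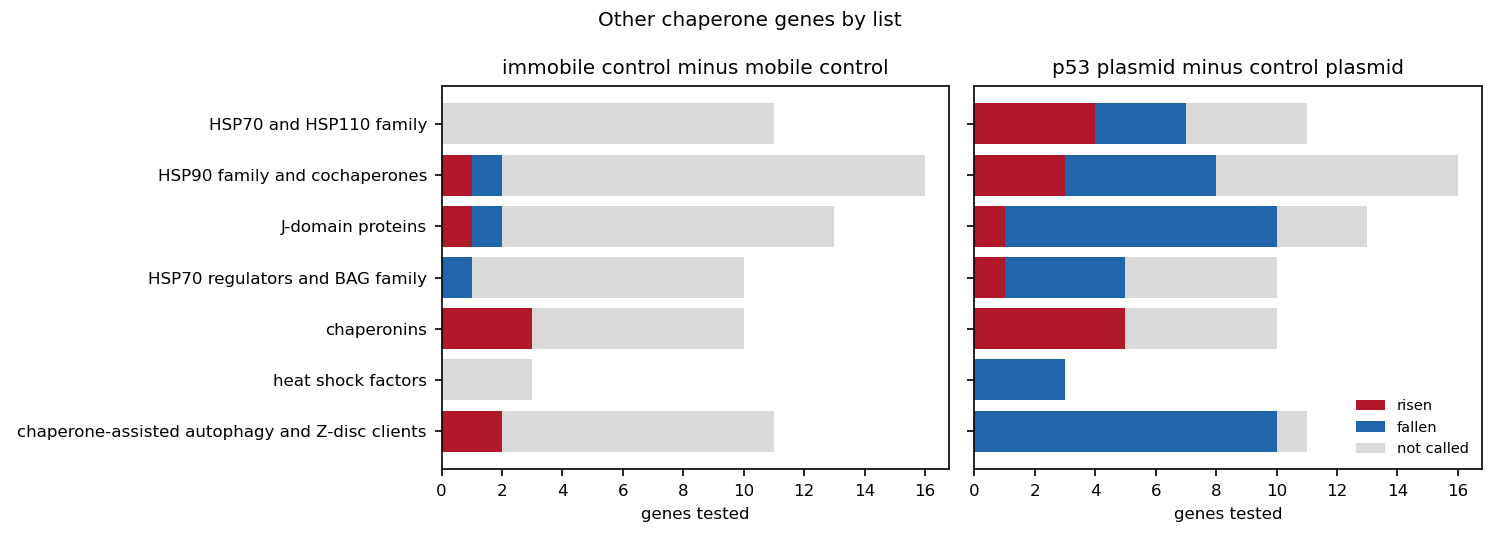
Number of genes risen, fallen or not called (horizontal axis, genes tested) in each chaperone list for the comparisons shown. With the p53 plasmid, 10 of 11 autophagy and Z-disc genes and 9 of 13 J-domain genes fell, while 5 of 10 chaperonin genes rose. The Des and Xirp1 calls among the 10 were lost with some single arrays left out.

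By likeness over the 17 arrays, taken as the smallest root mean square difference of log2 values centred on each probe's mean, the genes nearest to Hspb3 were Tuba8 (0.13), Psg23 (0.16) and Schip1 (0.16). Those nearest to Hspb2 were Smim19 (0.12), Tuba8 (0.13) and Ankrd40 (0.13). Those nearest to Hspb7 were Popdc3 (0.31), Cpne2 (0.32) and Pdlim3 (0.32), a looser match.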

How the data were processed

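RNA was extracted with TRIzol and a column kit, amplified and labelled with biotin, per the labels' protocols. The deposited table holds log2 values for 25697 probes on 17 arrays. Their base and a normalization between arrays were inferred from the range and the near-equal array medians, and the background correction and normalization method are not given in the sources used here. Symbols came from the probe annotation: 23978 probes had 1 symbol, 0 had several and 1719 were unnamed. Array number limits the precision.

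Each probe was fitted with limma 3.58.1 in R 4.3.3 (lmFit, contrasts.fit, eBayes), with Benjamini-Hochberg adjustment over all probes tested and a threshold of 0.05. A probe was tested if it exceeded the 40th percentile on a number of arrays no smaller than the smallest group: 16036 in the 9 immobilization arrays, 15426 in the 8 transfection arrays and 17107 in all arrays. The script was tested on simulated data. Alternatives changed the filter, the normalization, the floor, the variance model, the samples fitted and the arrays left out.

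Members and gene lists were chosen with earlier results of these data known. All member probes are named; from each list, up to 4 called genes with the largest differences, each by its brightest probe. Same-numbered immobilized p53 mKO and immobilized control arrays deviated alike. Their deviations from the group means correlated at 0.63, 0.54 and 0.84 for numbers 1, 2 and 3. Deviations within a group sum to 0, so these correlations are not independent. The labels do not say what a shared number stands for. With the number as a block, 0 probes were called in that comparison.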

Additional observations from a re-analysis of the deposited data

Results flagged for a closer look

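Of 18 sets of 4 arrays tested, 2 had an array far from the other 3, where chance gives about 1 in 20. Hspb3 on p53 plasmid array 3 read 11.58, against 11.20, 11.13 and 11.14 on the other p53 plasmid arrays, a gap of 0.844 of the group's range. Bag3 on p53 plasmid array 2 read 12.89, against 13.12, 13.16 and 13.16, a gap of 0.852 of the range. Both ratios were above Dixon's critical value for 4 arrays. Both arrays stayed on their group's side of every control plasmid array.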

How the results depend on the processing

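Over all members, comparisons and alternatives, 737 values kept their side of the threshold, 16 crossed it to a call and 21 lost a call; no called value changed sign. Few arrays per group, an unstated background correction, the floor near 8.21 and the top near 15.61 limit precision and can shrink differences. In immobilized control against mobile control muscle, 1626 probes were called, 3480 with array weights, 2840 with all 17 arrays and 748 to 1561 with 1 array left out; members risen were 2 with array weights and 0 to 3 with 1 array left out, and members fallen were 1 to 2. In p53 mKO against mobile control muscle, 1363 were called, 2921 with array weights, 2065 with only the 2 groups, 2493 with all 17 arrays and 544 to 880 with 1 array left out; members fallen were 1 with no filter, a common array median, a replicate block or a trended robust prior, 0 with the offset removed and 0 to 1 with 1 array left out, and members risen were 0 to 1. In control plasmid against mobile control muscle, Bag3 was called with array weights (-0.23, limma, adjusted p = 0.0496). With 1 array left out, the calls that changed there were those of Bag3, Cryab and Hspb7 given above. The causes were not tested.

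Outside the pair named under processing, same-numbered arrays of immobilized and mobile control muscle correlated at 0.09, 0.05 and 0.19. Those of p53 mKO and mobile control muscle correlated at 0.17, -0.15 and 0.12, and those of the plasmids at 0.23, 0.03, 0.08 and 0.03. With so few arrays these low values neither show nor exclude a pairing, which is not labelled. With the number as a replicate block, 2107, 1711 and 8548 probes were called, against 1626, 1363 and 8960 without it, and Hspb3 lost its call in p53 mKO against mobile control muscle (adjusted p = 0.0724, limma). For p53 plasmid against control plasmid, Hspb1 was called with a stricter filter (limma, adjusted p = 0.0492), the offset removed (0.0389) and a trended robust prior (0.0468), and Hspb6 with quantile normalization (-0.17, adjusted p = 0.0153). No block was possible for control plasmid against mobile control muscle, which belong to different experiments.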

Other observations

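The other genes that stood out on mobile control array 1 were chosen after their values were seen, and not strictly by rank. Mustn1, a muscle gene of growth and repair, read 14.46 there, against 11.92 on the next mobile array. Csrp3, the Z-disc stretch protein, read 13.67 against 11.49, Rcan1 11.47 against 9.72, Ankrd1 11.72 against 10.22, Tnfrsf12a 10.98 against 9.52 and Xirp1 11.64 against 10.82. Fbxl13 (9.89 against 8.42), Tubb6 (11.87 against 10.78), Lgals3 (11.38 against 10.33) and Psat1 (9.69 against 8.76) also stood further apart there than Xirp1. All of these stood beside the 4 members Hspb7, Cryab, Hspb1 and Hspb8 on that array.

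On control plasmid array 4, beside Hspb8 and Hsph1, Gadd45a read 13.16 against 11.73 on the next control plasmid array, sarcolipin Sln 11.31 against 9.94 and Ankrd1 13.18 against 12.25. Ankrd1, Rcan1, Rrad and the member Hspb8 stood apart on both arrays. On control plasmid array 4 Rcan1 read 10.31 against 9.43, Rrad 11.22 against 10.41 and Hspb8 14 against 13.2. On mobile control array 1 Rrad read 9.22 against 8.54 and Hspb8 13.37 against 12.75.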
